A study of Mus musculus with 2 samples.

Results

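Collagen and elastin become mechanically stable when lysine side chains of neighbouring molecules are joined by covalent crosslinks. The procollagen lysyl hydroxylases, encoded by Plod1, Plod2 and Plod3, add hydroxyl groups to lysines of the procollagen chain inside the endoplasmic reticulum. The lysyl oxidases, encoded by Lox and its paralogs Loxl1, Loxl2, Loxl3 and Loxl4, are copper-dependent enzymes that oxidise those lysines outside the cell, after which the crosslinks form. In pancreatic ductal adenocarcinoma, which carries an unusually dense collagen stroma, these enzymes are known as determinants of matrix stiffness, and several of them are textbook targets of hypoxia-inducible factors. The data described here are the transcripts of these 8 genes, 5 of the Lox family and 3 of the Plod family, each chosen by its symbol and each found once among the 32285 genes of the table.

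The samples were single cells from pancreatic tumours of KPPC mice, in which tumours arise from pancreatic cells that lack Trp53; the labels do not give the Cre driver. The mice were 6 weeks old and were treated for 14 days with vehicle or with takinib, an inhibitor of the kinase TAK1, at 50 mg per kg. Each group is 1 library, and the number of mice pooled in a library is not stated. By the transcript Xist and 4 Y-linked genes, the vehicle library held 1075 kept cells of female origin and 3087 of male origin, while the takinib library held 14324 of female and 0 of male origin. With 1 library per group there is no replicate and no test. Every interval below is an exact 95% interval that covers counting error only, and differences between mice, between libraries and between treatments cannot be told apart. The question the design puts to these genes is which cells carried them in the tumour and how their levels compared between the libraries.

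After removal of doublets, cells with at least 1000 unique molecular identifiers (UMIs, each 1 captured transcript), at least 500 genes and at most 20% mitochondrial UMIs were kept: 9558 of vehicle and 25183 of takinib. Their median depth was 3556 and 2887 UMIs, and their median mitochondrial share was 8.70% and 1.79%. The same barcode occurred in both libraries for 359 kept cells. Cells were clustered without the 8 genes or any gene of the lists below, and clusters were named from marker genes. The makeup of the libraries differed: vehicle held 593 fibroblast-like, 592 perivascular-like, 714 endothelial-like, 1723 epithelial-like, 4635 macrophage-like and 268 neutrophil-like cells, and takinib held 310, 14, 105, 1929, 6034 and 12046 of the same classes. All 10 fibroblast markers were above 20 CPM (UMI counts scaled to the class total in the usual way) in the fibroblast-like class of both libraries, as were all 10 epithelial, all 10 macrophage and all 9 endothelial markers in theirs. The neutrophil transcripts S100a8 and S100a9 together were at 86.3 CPM in vehicle and 10246 CPM in takinib fibroblast-like cells. They were at 108 and 10140 CPM in epithelial-like cells, at 259 and 7340 CPM in macrophage-like cells and at 424 and 26559 CPM in endothelial-like cells. The part of these transcripts in the results below was not tested.

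The members lie apart in the mouse genome (GRCm38, GENCODE M21). Loxl1 lies at chr9:58287738-58313186 on the minus strand, and Plod2, on the same chromosome, at chr9:92542223-92608428 on the plus strand. Loxl2 is at chr14:69609068-69695834 (plus strand), Loxl3 at chr6:83034173-83052562 (plus) and Loxl4 at chr19:42593982-42612813 (minus). Plod1 is at chr4:147909753-147936767 (minus) and Plod3 at chr5:136987019-136996648 (plus). Loxl3 overlaps the protein-coding gene Htra2 and Plod3 overlaps Znhit1, both on the opposite strand.

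The paralogs are related but separable by sequence. Over the 28 pairs of members, the longest run of identical bases in their longest coding transcripts was between 11 and 32 bases, with the maximum for Lox and Loxl1. The most alike 60-base coding stretch of Loxl1 to Loxl4 is shown to give a sense of that relatedness. It holds 40 positions that are identical in all of them, written in capitals (5′ to 3′, coding strand, from GENCODE M21).
Loxl1: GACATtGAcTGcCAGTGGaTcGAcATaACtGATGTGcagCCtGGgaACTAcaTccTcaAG
Loxl2: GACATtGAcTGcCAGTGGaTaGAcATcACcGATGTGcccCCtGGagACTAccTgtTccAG
Loxl3: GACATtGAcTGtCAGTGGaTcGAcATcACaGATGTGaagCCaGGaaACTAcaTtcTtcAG
Loxl4: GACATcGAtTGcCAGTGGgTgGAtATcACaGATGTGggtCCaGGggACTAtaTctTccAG
In Loxl2 this stretch is exonic, at chr14:69690211-69690270. The matching stretch for the lysyl hydroxylases holds 46 identical positions of 60.
Plod1: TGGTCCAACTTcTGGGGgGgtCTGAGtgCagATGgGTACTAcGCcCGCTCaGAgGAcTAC
Plod2: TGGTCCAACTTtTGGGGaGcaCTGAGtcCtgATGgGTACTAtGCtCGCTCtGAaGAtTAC
Plod3: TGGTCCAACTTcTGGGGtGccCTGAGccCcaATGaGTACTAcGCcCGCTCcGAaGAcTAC
In Plod2 it is exonic too, at chr9:92598628-92598687.

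In the vehicle tumours the 8 genes fell into stromal transcripts and widely carried ones. Lox, Loxl1 and Plod2 had their highest level in fibroblast-like cells, Loxl2 and Loxl3 in perivascular-like cells, and Plod1 in endothelial-like cells. Plod3 was found in all 12 classes of at least 50 cells, with neighbouring classes overlapping in their intervals from 159.5 CPM in fibroblast-like to 19.0 CPM in dendritic-like cells.

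Lox, the founding lysyl oxidase, encoded on chromosome 18, was at 449.9 CPM (1038 UMIs) in vehicle fibroblast-like cells and at 287 CPM (105 UMIs) in mesothelial-like cells. Perivascular-like cells, the other large stromal class, held 16.5 CPM (37 UMIs), and the classes below it each overlapped the one directly above in their intervals, from 8.38 CPM in neutrophil-like cells (3 UMIs) to 0 in T-like, dendritic-like and monocyte-like cells. Epithelial-like cells at 7.56 CPM (6.05 to 9.32) were apart from macrophage-like cells at 2.42 CPM (1.79 to 3.20). A Lox UMI was seen in 56.3% (52.2 to 60.4) of vehicle and 73.9% (68.6 to 78.7) of takinib fibroblast-like cells, against 0.820% (0.0994 to 2.93) and 0.953% (0.508 to 1.62) of B-like cells. The median depths were 3152 and 7499 UMIs in the fibroblast-like cells and 1644 and 1921 UMIs in the B-like cells. With every cell thinned to 1000 UMIs the fibroblast-like shares were 25.6% (22.2 to 29.3) and 32.3% (27.1 to 37.8). Lox was thus a transcript of fibroblast-like and mesothelial-like cells in the vehicle library.

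Loxl1, an oxidase tied to elastic fibre assembly, followed the same order. It stood at 824 CPM (1900 UMIs) in vehicle fibroblast-like, 342 CPM (125 UMIs) in mesothelial-like, 79.3 CPM (178 UMIs) in perivascular-like and 9.73 CPM (112 UMIs) in epithelial-like cells, each interval apart from the one above. Plod2, the hydroxylase of collagen telopeptides, was at 273 CPM (630 UMIs) in fibroblast-like, 129 CPM (47 UMIs) in mesothelial-like, 71.3 CPM (160 UMIs) in perivascular-like, 35.7 CPM (76 UMIs) in endothelial-like and 18.8 CPM (216 UMIs) in epithelial-like cells, again with each interval apart from the one above. Both genes thus had the same order of the mesenchymal classes, with epithelial-like cells below them.

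Loxl2 and Loxl3, which share scavenger-receptor cysteine-rich domains with Loxl4, had another order. Loxl2 was at 406 CPM (912 UMIs) in vehicle perivascular-like cells, which are led by Rgs5 and Acta2, above 243 CPM (561 UMIs) in fibroblast-like cells, with intervals apart. Loxl3 was at 99.8 CPM (224 UMIs) in perivascular-like and 91.9 CPM (212 UMIs) in fibroblast-like cells, and these intervals overlapped. Loxl4 was scarcely captured, with 39 UMIs in all kept vehicle cells and 40 in takinib, of which 22 and 33 were in epithelial-like cells.

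Plod1, the hydroxylase of the collagen helix, stood highest in endothelial-like cells, at 281 CPM (598 UMIs) in vehicle, with the next classes at 78.9 CPM (fibroblast-like, 182 UMIs) and 72.6 CPM (perivascular-like, 163 UMIs). Plod3, which also glycosylates hydroxylysine, was at 159.5 CPM (368 UMIs) in fibroblast-like, 131 CPM (33 UMIs) in monocyte-like, 127.0 CPM (285 UMIs) in perivascular-like and 127 CPM (2561 UMIs) in macrophage-like cells of vehicle, with overlapping intervals between neighbours. It was at 66.6 CPM in T-like, 62.4 CPM in epithelial-like, 54.2 CPM in B-like and 44.7 CPM in neutrophil-like cells, below the 76.8 CPM (57.0 to 101.2) of the vehicle library's empty droplets. Because macrophage-like cells were numerous, they gave 49.3% (47.3 to 51.3) of the vehicle library's Plod1 UMIs and 57.2% (55.8 to 58.7) of its Plod3 UMIs.

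**Figure D1:**
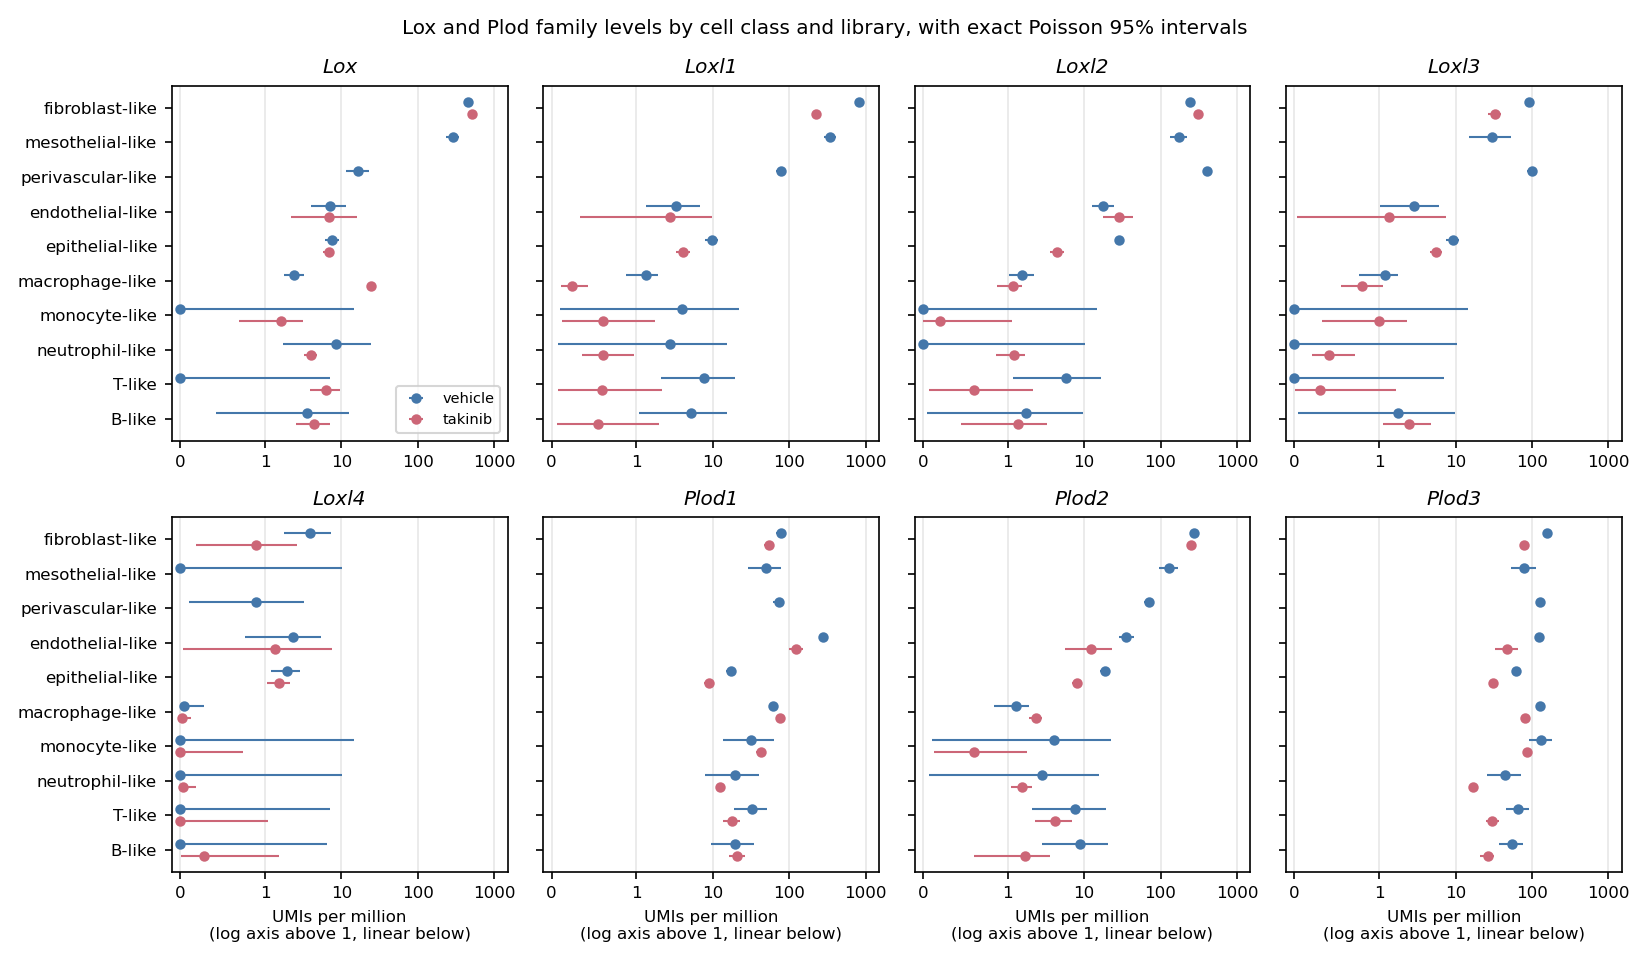
Level of each gene in each cell class, in CPM (horizontal axis, logarithmic above 1), for the vehicle and takinib libraries, with exact Poisson 95% intervals; classes with under 50 cells in a library are left out of that library. Lox, Loxl1 and Plod2 are highest in fibroblast-like cells, Plod1 in endothelial-like cells, and Lox in macrophage-like cells is at 2.42 in vehicle and 24.1 in takinib.

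In fibroblast-like cells the members did not differ together between the libraries. Of the 8 genes, 7 had at least 20 UMIs over both libraries, 3 of these were at least 2-fold lower in takinib and 0 were at least 2-fold higher. Over all 11717 genes that passed the same minimum in these cells, 14.3% were at least 2-fold lower and 9.73% at least 2-fold higher. The median log2 ratio was -0.54 over the 7 members and -0.15 over all genes.

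Lox was at 449.9 CPM (1038 UMIs) in vehicle and 506 CPM (1700 UMIs) in takinib, a log2 ratio of 0.17 (0.06 to 0.28). Loxl2 was at 243 CPM (561 UMIs) and 308 CPM (1035 UMIs), a log2 ratio of 0.34 (0.19 to 0.49). Plod2 was at 273 CPM (630 UMIs) and 254 CPM (854 UMIs), a log2 ratio of -0.10 (-0.25 to 0.05). These 3 genes were therefore within 2-fold between the libraries. Against vehicle cells of female origin alone their log2 ratios were 0.54, 0.79 and 0.88, and with each library clustered on its own they were -0.25, -0.07 and -0.52.

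Loxl1 was at 824 CPM (1900 UMIs) in vehicle and 227 CPM (763 UMIs) in takinib, a log2 ratio of -1.86 (-1.98 to -1.74), the largest difference among the 7 members with enough UMIs in these cells. Loxl3 was at 91.9 CPM (212 UMIs) and 32.4 CPM (109 UMIs), a log2 ratio of -1.50 (-1.85 to -1.16). Plod3 was at 159.5 CPM (368 UMIs) and 78.9 CPM (265 UMIs), a log2 ratio of -1.02 (-1.25 to -0.78). Plod1 was at 78.9 CPM and 54.2 CPM from 182 UMIs in each library, a log2 ratio of -0.54 (-0.85 to -0.24). Loxl4 had 9 and 3 UMIs. The 3 genes past 2-fold were thus an elastin-related oxidase, Loxl3 and the glycosylating hydroxylase, and Plod3 lay at the boundary: it was past 2-fold lower in 8 of 15 alternative settings. With vehicle cells of female origin alone, the sex of all sexed takinib cells, only Loxl1 was past 2-fold.

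**Figure D2:**
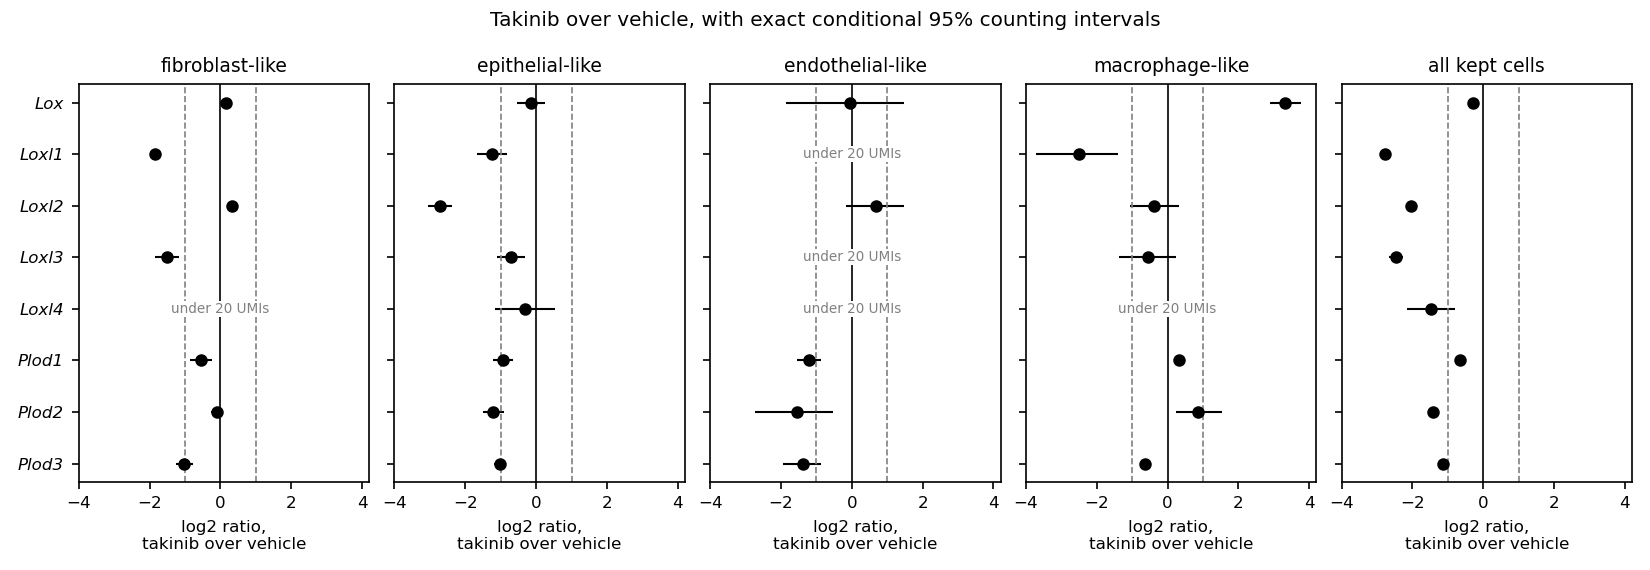
Log2 ratio of takinib over vehicle for each gene (rows) in 4 cell classes and over all kept cells (panels), with exact conditional 95% intervals for counting error; dashed lines mark 2-fold and genes with under 20 summed UMIs are left blank. Lox is to the right of the upper line in macrophage-like cells alone, at 3.31, while Loxl1 is past the lower line in fibroblast-like, epithelial-like and macrophage-like cells and over all kept cells.

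The fibroblast-like class was made of different clusters in the libraries, so the genes were also set side by side within them. A cluster led by Igfbp3, Col12a1 and Sfrp1 held 440 of the 593 vehicle cells and 59 of the 310 takinib cells. A cluster led by Serpinb2 and Timp1 held 70 takinib cells and 0 vehicle cells. Its median depth was 23405 UMIs and it gave 49.4% of the takinib class's UMIs. Only 3 fibroblast markers counted towards its name, the minimum for naming. A cluster led by Dcn, Mgp and Cxcl12 held 77 takinib cells and 1 vehicle cell. It gave 22.5% of the takinib class's UMIs and was named from 4 markers. Within the Igfbp3-led cluster Lox was at 455 CPM in vehicle (814 UMIs) and 434 CPM in takinib (106 UMIs), a log2 ratio of -0.07 (-0.38 to 0.22). Loxl1 there was at 879 CPM (1572 UMIs) and 335 CPM (82 UMIs), a log2 ratio of -1.39 (-1.73 to -1.07). Loxl3 was at 109 CPM (195 UMIs) and 65.5 CPM (16 UMIs), a log2 ratio of -0.74 (-1.57 to -0.0009), so within 2-fold in this cluster. Plod3 was at 165 CPM (295 UMIs) and 40.9 CPM (10 UMIs), a log2 ratio of -2.01 (-3.09 to -1.11). Loxl2 was at 235 CPM (420 UMIs) and 139 CPM (34 UMIs), a log2 ratio of -0.76 (-1.31 to -0.25), and Plod2 at 275 CPM (492 UMIs) and 164 CPM (40 UMIs), a log2 ratio of -0.75 (-1.25 to -0.28). Loxl2 and Plod2 were therefore lower in takinib within this cluster and close to equal over the class; without the Serpinb2-led cluster the Loxl2 ratio over the class was -0.47.

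Of the takinib fibroblast-like clusters with at least 20 cells, the Serpinb2-led one held the highest Loxl2 and Plod2, at 444 and 299 CPM, with Lox at 553 CPM and Loxl1 at 169.8 CPM. In the cluster led by Cxcl13 (37 vehicle and 62 takinib cells) Lox was at 306 CPM (52 UMIs) in vehicle and 459.7 CPM (192 UMIs) in takinib, a log2 ratio of 0.59 (0.14 to 1.06). Loxl1 in that cluster was at 347 CPM (59 UMIs) and 338 CPM (141 UMIs), a log2 ratio of -0.04 (-0.49 to 0.42). In the cluster led by Col3a1 and Lum (63 and 39 cells) Loxl1 was at 839.9 CPM (186 UMIs) and 448 CPM (103 UMIs), a log2 ratio of -0.91 (-1.27 to -0.55). The interval of the Loxl1 difference thus lay below 0 in 2 of these 3 clusters. Plod3 was within 2-fold in the cluster led by Col3a1 and Lum, at -0.66 (-1.41 to 0.08), and in the Cxcl13-led one, at -0.71 (-1.76 to 0.38). A vehicle cluster of 41 cells led by Clec3b and Eln, with 0 takinib cells, held Loxl1 at 676 CPM and Loxl2 at 612 CPM but Lox at 12.7 CPM from 1 UMI.

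Macrophage-like cells held the one member that was at least 2-fold higher in takinib in any class described. Of the 7 members with at least 20 UMIs, Lox was at least 2-fold higher and Loxl1 at least 2-fold lower, beside 7.92% and 9.54% of the 13972 genes tested in these cells. Lox was at 2.42 CPM (49 UMIs in 4635 cells) in vehicle and 24.1 CPM (1022 UMIs in 6034 cells) in takinib, a log2 ratio of 3.31 (2.90 to 3.76). With every cell thinned to 1000 UMIs, 0.108% (0.0350 to 0.252) of vehicle and 1.87% (1.55 to 2.25) of takinib macrophage-like cells held a Lox UMI. In B-like cells the thinned shares were 0.820% and 0.513%. Unthinned, the macrophage-like shares were 1.04% (0.765 to 1.37) and 7.33% (6.68 to 8.01), against 0.820% and 0.953% of B-like cells; the median depths of the macrophage-like cells were 3929 and 6230 UMIs. The vehicle B-like share rested on 2 Lox UMIs in 244 cells, so the vehicle macrophage-like share could not be placed above or below it. In takinib the macrophage-like share was above the B-like share both ways. As a share of all Lox UMIs, macrophage-like cells gave 3.59% (2.67 to 4.71) in vehicle and 32.2% (30.6 to 33.9) in takinib.

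Lox was not spread evenly over the takinib macrophage-like cells. The cluster led by U90926, Saa3 and F13a1 held 2066 takinib cells and 0 vehicle cells, and Lox was at 57.4 CPM there (780 UMIs, in 339 cells or 16.4%, interval 14.8 to 18.1). The cluster led by Mmp12 and Ctsk held 755 takinib and 45 vehicle cells, and Lox was at 23.0 CPM in takinib (166 UMIs) and at 0 UMIs in vehicle, at least 2.52-fold higher when vehicle is set to the floor of 3 counts. The other 4 macrophage-like clusters were between 1.78 and 8.36 CPM in takinib and between 2.23 and 3.69 CPM in vehicle. In the cluster led by Chil3, which held 1570 vehicle and 1742 takinib cells, Lox was at 2.72 and 2.65 CPM (19 and 30 UMIs), a log2 ratio of -0.04 (-0.91 to 0.87). Without the U90926-led cluster the log2 ratio over macrophage-like cells was 1.79. In the cluster led by Pclaf, with 194 vehicle and 182 takinib cells, Lox was at 2.23 and 8.36 CPM (3 and 17 UMIs), a log2 ratio of 1.91 (0.12 to 4.32). The highest Lox levels among macrophage-like cells were thus in 2 clusters made almost wholly of takinib cells.

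The cells that held Lox in the U90926-led cluster carried macrophage transcripts. In the 169 cells with 2 or more Lox UMIs, Csf1r was at 506 CPM and Cd68 at 290 CPM, and in the 1727 cells with no Lox UMI they were at 606 and 302 CPM. Of the fibroblast transcripts, Col1a1 was at 7.43 CPM in the first and 8.28 CPM in the second, Lum at 0 and 0.552 CPM, and Pdgfra at 0 and 0.736 CPM. In takinib fibroblast-like cells Col1a1 was at 5353 CPM, Lum at 285 CPM and Pdgfra at 285 CPM. Dcn, a proteoglycan of fibroblasts, went the other way, at 264 CPM (391 UMIs) and 32.3 CPM (351 UMIs), against 5512 CPM in takinib fibroblast-like cells. Cxcl13 was at 293 and 21.9 CPM, and Fstl1 at 45.9 and 6.90 CPM. Cxcl13 leads a fibroblast-like cluster and is also among the leading genes of the macrophage-like cluster led by Ccl8. The median depths of the 2 sets of cells were 7964 and 5772 UMIs. Over the whole macrophage-like class the summed level of the 10 fibroblast markers was 50.7 CPM (vehicle) against 92.4 CPM (takinib), with none at 0 and with 1 and 2 of them above 20 CPM; their part in the Lox difference was not tested. Loxl2 was at 2.03 and 1.38 CPM and Plod2 at 3.38 and 5.89 CPM, and the other members were not measured by Lox status. In the Mmp12-led cluster the values differed: the 31 cells with 2 or more Lox UMIs held Col1a1 at 123 CPM (54 UMIs) beside 7.0 CPM (45 UMIs) in the 694 cells with none, Col1a2 at 38.8 beside 6.07 CPM and Col3a1 at 31.9 beside 7.47 CPM. Lum and Pdgfra were at 0 UMIs in those 31 cells, Dcn was at 36.5 beside 31.1 CPM and Csf1r at 433 beside 251 CPM.

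Plod1 and Plod3 are the members that macrophage-like cells carried in both libraries. Plod1 was at 61.5 CPM (1245 UMIs) in vehicle and 76.8 CPM (3258 UMIs) in takinib, a log2 ratio of 0.32 (0.23 to 0.42). Plod3 was at 127 CPM (2561 UMIs) and 80.7 CPM (3425 UMIs), a log2 ratio of -0.65 (-0.72 to -0.57). Plod3 was lower in takinib in 4 of the 5 macrophage-like clusters held by both libraries, from 192 to 90.7 CPM in the one led by Ccl8 and from 145 to 91.0 CPM in the one led by Chil3, and was at 73.0 and 73.5 CPM in the one led by Mmp12. Plod2 was at 1.29 CPM (26 UMIs) and 2.33 CPM (99 UMIs), a log2 ratio of 0.86 (0.23 to 1.54); it was past 2-fold higher in 4 of 15 alternative settings and at -0.63 without the U90926-led cluster. Loxl2, from 31 and 50 UMIs, was at -0.38 (-1.05 to 0.32), Loxl3, from 24 and 34 UMIs, at -0.57 (-1.36 to 0.25), and Loxl4 had 1 UMI in each library. Loxl1 rested on 27 and 10 UMIs, at 1.33 and 0.236 CPM, a log2 ratio of -2.50 (-3.71 to -1.41).

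Epithelial-like cells had 4 of 8 members at least 2-fold lower in takinib and 0 higher. Over all 14974 genes tested there, 10.6% were at least 2-fold lower and 8.58% at least 2-fold higher. The median log2 ratio was -0.98 over the members and -0.16 over all genes. Loxl2, which in carcinoma cells is known for its link to the epithelial-mesenchymal transition, was at 28.9 CPM (333 UMIs) in vehicle and 4.39 CPM (95 UMIs) in takinib, a log2 ratio of -2.72 (-3.07 to -2.39). It was past 2-fold lower in all 15 alternative settings, from -3.84 to -1.44. Loxl1 was at 9.73 CPM (112 UMIs) and 4.11 CPM (89 UMIs), a log2 ratio of -1.24 (-1.66 to -0.83). Plod2 was at 18.8 CPM (216 UMIs) and 8.13 CPM (176 UMIs), a log2 ratio of -1.21 (-1.50 to -0.91). Plod3 was at 62.4 CPM (718 UMIs) and 30.7 CPM (664 UMIs), a log2 ratio of -1.02 (-1.18 to -0.87). Loxl2 stood apart from the other lower members by the size of its difference. In the vehicle library's empty droplets Loxl2 was at 23.0, Loxl1 at 39.9, Plod2 at 18.4 and Plod3 at 76.8 CPM. The vehicle epithelial-like levels of Loxl1 and Plod3 were below these, and that of Plod2 was close. Those of Lox, Loxl3 and Plod1, given next, were also below the empty droplets, at 30.7, 9.21 and 36.8 CPM. Takinib had no empty droplets to compare, and the part of free RNA was not tested.

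Plod1 was at 17.1 CPM (197 UMIs) in vehicle and 8.96 CPM (194 UMIs) in takinib epithelial-like cells, a log2 ratio of -0.93 (-1.23 to -0.64). Loxl3 was at 9.12 CPM (105 UMIs) and 5.59 CPM (121 UMIs), a log2 ratio of -0.71 (-1.10 to -0.32). Loxl4 was at 1.91 CPM (22 UMIs) and 1.52 CPM (33 UMIs), a log2 ratio of -0.33 (-1.15 to 0.52). Lox was at 7.56 CPM (87 UMIs) and 6.88 CPM (149 UMIs), a log2 ratio of -0.13 (-0.53 to 0.26), and 53 of the 120 takinib Lox UMIs in the cluster described next came from 4 cells. This value depended on the setting: it was -2.11 with a stricter filter on UMIs and genes per cell, -1.91 with each library clustered on its own and 0.49 with equal weight per cell. Loxl3 was at -2.88 and -2.43 in the first and second of these settings.

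Most epithelial UMIs of the oxidases came from 1 cluster, led by Cdkn2a, Hmga2 and Ppy, with 1093 vehicle and 823 takinib cells. It held 325 of the 333 vehicle and 86 of the 95 takinib Loxl2 UMIs, at 45.9 and 8.44 CPM, a log2 ratio of -2.44 (-2.80 to -2.10). In the cluster led by Dmbt1, Gkn3 and Tff2 (506 and 799 cells), Loxl2 was at 1.72 and 0.873 CPM. Plod3 was more even, at 76.5 and 36.5 CPM in the first and 42.9 and 26.0 CPM in the second. Plod2 was at 28.8 and 14.8 CPM in the first and 2.29 and 2.04 CPM in the second. Loxl2 and Plod2 thus lay mainly in the Cdkn2a-led cluster, and Plod3 was found in both. In the Dmbt1-led cluster no member with at least 20 UMIs was past 2-fold. In the Cdkn2a-led cluster Plod2 was within 2-fold, at -0.96 (-1.27 to -0.65). Plod1 was past 2-fold lower there, at -1.11 (-1.47 to -0.75).

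Within the Cdkn2a-led cluster the vehicle cells could be split by origin. Loxl2 was at 94.98 CPM (84 UMIs, 129 cells) in vehicle cells of female origin and 43.5 CPM (182 UMIs, 531 cells) in those of male origin, both above the 8.44 CPM of takinib. Lox was at 50.9 CPM (45 UMIs) in the female and 5.73 CPM (24 UMIs) in the male vehicle cells, with takinib at 11.8 CPM (120 UMIs) between them. The direction of the Lox difference in epithelium therefore depended on which vehicle cells it was taken against. Of the 45 Lox UMIs in the female vehicle cells, 22 came from 4 cells, and 17 of these 129 cells held any. Plod3 was at 71.2 CPM (63 UMIs) and 74.0 CPM (310 UMIs) in the female and male vehicle cells, both above 36.5 CPM in takinib. Plod2 was at 28.3 CPM (25 UMIs) and 30.1 CPM (126 UMIs), both above 14.8 CPM (151 UMIs) in takinib. Sex and mouse cannot be told apart in these values.

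**Figure D3:**
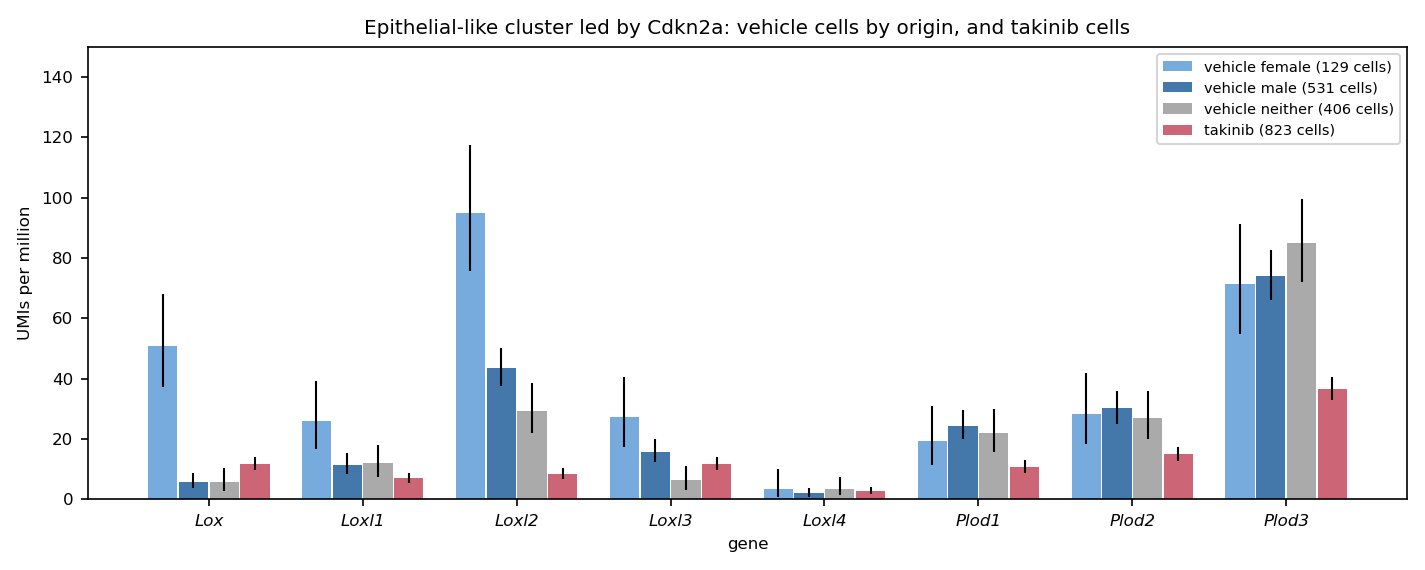
Level in CPM (bars, with exact Poisson 95% intervals) of each gene in the Cdkn2a-led cluster of epithelial-like cells, for vehicle cells of female origin, of male origin and of neither call, and for takinib cells. Loxl2 and Plod3 are lower in takinib than in every vehicle set, while Lox in takinib (11.8) lies between the female (50.9) and male (5.73) vehicle cells.

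In endothelial-like cells 5 members had at least 20 UMIs, and all 3 lysyl hydroxylases were at least 2-fold lower in takinib. Over all 10133 genes tested there, 14.1% were at least 2-fold lower and 6.49% higher, and takinib held 105 of these cells. Plod1 was at 281 CPM (598 UMIs) in vehicle and 122 CPM (90 UMIs) in takinib, a log2 ratio of -1.20 (-1.53 to -0.88). Plod3 was at 125 CPM (266 UMIs) and 47.6 CPM (35 UMIs), a log2 ratio of -1.39 (-1.94 to -0.88). Plod2 was at 35.7 CPM (76 UMIs) and 12.2 CPM (9 UMIs), a log2 ratio of -1.54 (-2.73 to -0.54). Loxl2 was at 17.9 CPM (38 UMIs) and 28.6 CPM (21 UMIs), with an interval of -0.16 to 1.48 around a log2 ratio of 0.68. Lox, from 15 and 5 UMIs, was at -0.05 (-1.87 to 1.48). Loxl1 (7 and 2 UMIs), Loxl3 (6 and 1) and Loxl4 (5 and 1) were under the minimum. The hydroxylases were lower, and a difference in Lox or Loxl2 was not detectable at this depth.

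Since Plod1 and Plod3 were both past 2-fold lower in endothelial-like cells, the promoters that RefSeq gives for them (GRCm38.p6) are shown for the 250 bases before the start. Capitals mark ACGTG and GCGTG on either strand, the core letters of the hypoxia response element; on the other strand they read CACGT and CACGC, and the letters CACGTG would hold a match on both strands. At least 1 match is held by 38.6% of the 32851 promoter windows of this length.
Plod1, chr4:147936777-147937026, minus strand: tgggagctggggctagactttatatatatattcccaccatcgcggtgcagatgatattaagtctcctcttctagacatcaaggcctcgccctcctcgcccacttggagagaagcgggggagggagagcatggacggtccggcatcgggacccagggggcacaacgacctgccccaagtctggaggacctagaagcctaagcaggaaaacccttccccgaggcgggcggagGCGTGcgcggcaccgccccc
Plod3, chr5:136986769-136987018, plus strand: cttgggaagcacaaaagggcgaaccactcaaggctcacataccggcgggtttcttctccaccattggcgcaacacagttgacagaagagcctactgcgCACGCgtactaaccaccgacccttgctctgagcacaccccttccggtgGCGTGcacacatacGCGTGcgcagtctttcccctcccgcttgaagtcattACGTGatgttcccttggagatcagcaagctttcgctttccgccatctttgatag
The Plod1 window holds 1 match and the Plod3 window 4. A match is a description of the letters only.

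The other classes with at least 50 cells in both libraries carried few of these transcripts. In neutrophil-like cells 2 of 5 members were at least 2-fold lower, beside 38.9% of genes lower and 5.45% higher: Lox, from 3 and 117 UMIs, at -1.08 (-2.66 to 1.22), and Plod3, from 16 and 497 UMIs, at -1.40 (-2.12 to -0.59). In T-like cells Plod3 was at 66.6 CPM (35 UMIs) and 30.4 CPM (102 UMIs), the 1 of 3 members past 2-fold lower, beside 7.11% of genes lower and 9.49% higher. In B-like cells it was at 54.2 CPM (31 UMIs) and 26.2 CPM (95 UMIs), the 1 of 2 members past 2-fold lower, beside 8.94% of genes lower and 10.9% higher. In monocyte-like cells 0 of 2 members were past 2-fold, beside 12% of genes higher and 8.4% lower, and Plod3 was at 131 CPM (33 UMIs) and 86.98 CPM (433 UMIs). Plod1 was at 32.4 and 17.9 CPM in T-like, 19.2 and 21.0 CPM in B-like, 31.9 and 42.2 CPM in monocyte-like and 19.5 and 12.3 CPM in neutrophil-like cells. In neutrophil-like cells Plod2 had 1 and 45 UMIs and Loxl2 0 and 36, and in T-like cells Lox had 0 and 21. Loxl1, Loxl3 and Loxl4 were under 20 UMIs in all 4 of these classes, as were Lox, Loxl2 and Plod2 where not named. In dendritic-like cells no member had 20 UMIs, so 0 were past 2-fold, beside 11.7% of genes higher and 8.56% lower. Plod3 was thus lower in takinib in each of the 8 classes where it had 20 UMIs, by 2-fold or more in 6 of them. In the T-like, epithelial-like, B-like and neutrophil-like classes its vehicle level was below the 76.8 CPM of the vehicle empty droplets. The part of free RNA in these differences was not tested.

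Summed over all kept cells, 6 of the 8 members were at least 2-fold lower in takinib, beside 20.1% of all 17893 genes, and the median log2 ratio was -1.44 over the members and -0.33 over all genes. In such sums fewer cells of a type and less RNA per cell cannot be told apart, and the classes that carry these genes were a smaller share of the takinib library. Loxl1 was at 56.6 CPM (2376 UMIs) and 8.20 CPM (982 UMIs), and Loxl2 at 46.5 CPM (1951 UMIs) and 11.2 CPM (1343 UMIs). When the takinib levels of 15 classes were averaged with the class shares of the vehicle library, the log2 ratio of Loxl2 went from -2.05 to 0.01, that of Plod2 from -1.41 to -0.17 and that of Loxl1 from -2.79 to -0.97. Lox went from -0.30 to 0.58, Loxl3 from -2.47 to -1.04, Plod3 from -1.14 to -0.84 and Plod1 from -0.66 to -0.22. With the class shares held equal, Loxl3 alone was past 2-fold. These weighted values rest for perivascular-like cells on 14 takinib cells, in which Loxl2 was at 453 CPM (34 UMIs) beside 406 CPM in vehicle.

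The source of each gene's UMIs differed accordingly. Perivascular-like cells gave 46.7% (44.5 to 49.0) of the Loxl2 UMIs in vehicle and 2.53% (1.76 to 3.52) in takinib, where fibroblast-like cells gave 77.1% (74.7 to 79.3). For Lox, fibroblast-like cells gave 76.0% (73.6 to 78.2) in vehicle and 53.6% (51.8 to 55.3) in takinib. Loxl1 came mainly from fibroblast-like cells in both, with 80.0% (78.3 to 81.6) and 77.7% (75.0 to 80.3).

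**Figure D4:**
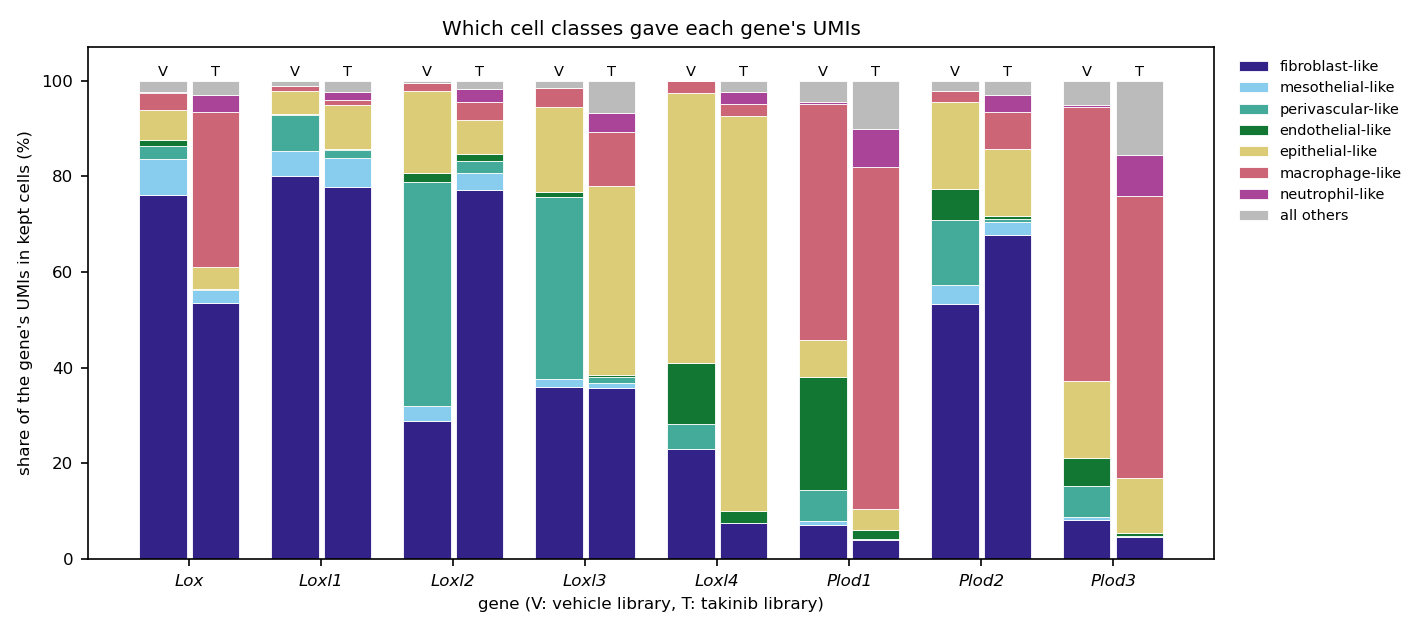
Share (%) of each gene's UMIs in kept cells that came from each cell class, for the vehicle (V) and takinib (T) libraries. The perivascular-like part of Loxl2 is 46.7 in vehicle and 2.53 in takinib, and the macrophage-like part of Lox is 3.59 and 32.2.

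The other genes of the pathway were read from lists that hold none of the 8 members. Beside every list stand the shares over all genes. In fibroblast-like cells 14.3% were at least 2-fold lower and 9.73% higher, and in epithelial-like cells 10.6% lower and 8.58% higher. The substrates and partners of the enzymes were lower in takinib fibroblast-like cells: of 12, 8 were at least 2-fold lower and 0 higher, with a median log2 ratio of -1.10 beside -0.15 over all genes. Postn, a matricellular protein that binds collagen, was at 925 CPM (2133 UMIs) and 114 CPM (383 UMIs), a log2 ratio of -3.02. Eln, elastin itself, was at 696 and 121 CPM, a log2 ratio of -2.53, and Fbln5, which carries Loxl1 to elastic fibres, at 75.0 and 14.3 CPM, a log2 ratio of -2.39. The 3 members of the list with the highest ratios were Fn1 at -0.60, Col5a1 at -0.77 and Efemp2 at -0.84. These are sums over the class, whose clusters differed between the libraries, and the list was not compared within clusters; Eln and Postn are among the leading genes of the Clec3b-led cluster of 41 vehicle and 0 takinib cells. In epithelial-like cells 3 of the 12 were at least 2-fold lower, led by Postn (-2.66), Fn1 (-2.17, from 4200 to 935 CPM) and Col5a1 (-1.04). Fbln5 (0.77), Col1a2 (0.72) and Tgm2 (0.26) had the highest ratios there.

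Of the 10 genes of prolyl hydroxylation, 9 passed the minimum in fibroblast-like cells. Of these, 1 was at least 2-fold higher and 2 were lower, beside 9.73% and 14.3% of all genes. P3h4, which works with the lysyl hydroxylases on the procollagen chain, was at 49.8 CPM (115 UMIs) and 117 CPM (394 UMIs), a log2 ratio of 1.23. P3h3, its partner, was at 139.6 CPM (322 UMIs) and 42.0 CPM (141 UMIs), a log2 ratio of -1.73, and P4ha3, a prolyl 4-hydroxylase subunit, was at -1.66. P3h1 was at -0.61, and Ppib (0.34) and P4ha1 (0.34) followed P3h4. The partners of a complex that acts beside the Plod enzymes thus lay on opposite sides. In epithelial-like cells 3 of 10 were lower and 0 higher: P4ha3 (-2.28), P3h3 (-1.41) and P3h1 (-1.16), with P4ha1 (0.32), P4hb (0.27) and P3h2 (0.24) highest.

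Of the 7 chaperones and glycosylation genes, 6 passed in each class. In fibroblast-like cells 0 were past 2-fold, from Fkbp14 (-0.78), Serpinh1 (-0.66) and Mia3 (-0.44) to Sparc (-0.27), Colgalt1 (-0.17) and Fkbp10 (0.25). In epithelial-like cells Serpinh1, the collagen-specific chaperone, was at 174 CPM (2003 UMIs) and 51.2 CPM (1109 UMIs), a log2 ratio of -1.76. Fkbp10, a chaperone that assists telopeptide hydroxylation by Plod2, was at 18.1 CPM (208 UMIs) and 7.21 CPM (156 UMIs), a log2 ratio of -1.33, and Fkbp14 was at -0.91. Colgalt1 (-0.31), Sparc (-0.25) and Mia3 (-0.12) had the highest ratios there. Of the 6 genes there, 2 were at least 2-fold lower and 0 higher, with a median log2 ratio of -0.61 beside -0.16 over all genes. Plod2, Serpinh1 and Fkbp10 were thus each at least 2-fold lower over the class, and the list was not compared within clusters.

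Of the 8 procollagen processing genes, 7 passed in each class. In fibroblast-like cells Adamts2, a procollagen N-proteinase, was at least 2-fold lower (-1.24) and Adamts14 (1.81, 10 and 51 UMIs) and Tll1 (1.46, 5 and 20 UMIs) were higher, with Bmp1 at -0.87, Pcolce at -0.68 and Adamts3 at 0.88. In epithelial-like cells 5 were lower and 2 higher. Adamts14 (-2.54), Pcolce2 (-1.91) and Bmp1 (-1.66) were lowest, and Tll1 (3.05), Pcolce (1.01) and Adamts3 (-1.15) highest. Bmp1, which also cleaves the Lox proenzyme, was at 135 and 42.7 CPM in epithelial-like cells.

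Most hypoxia-inducible genes of the list were higher in takinib in fibroblast-like and epithelial-like cells. In fibroblast-like cells 9 of 12 were at least 2-fold higher and 0 lower, beside 9.73% and 14.3% of all genes. The median log2 ratio was 1.66 over the list and -0.15 over all genes. These too are sums over a class whose clusters differed between the libraries, and the list was not compared within clusters. Egln3, an oxygen-sensing prolyl hydroxylase, was at 9.10 CPM (21 UMIs) and 66.4 CPM (223 UMIs), a log2 ratio of 2.87. Bnip3 was at 36.4 CPM (84 UMIs) and 198 CPM (666 UMIs), a log2 ratio of 2.44, and Car9 had 1 and 45 UMIs, a log2 ratio of 4.95 with a lower bound of 2.40. Ndrg1 (0.52), Adm (0.62) and Vegfa (0.67) had the lowest ratios. In epithelial-like cells 7 of 12 were at least 2-fold higher and 0 lower, with a median of 1.08: Adm (3.02), Egln3 (2.97) and Bnip3 (2.48) led and Vegfa (-0.12), Hk2 (0.56) and Ldha (0.59) were lowest. Lox, Loxl2 and Plod2, which are known as hypoxia-inducible, were within 2-fold in fibroblast-like cells, and Loxl2 and Plod2 were lower in epithelial-like cells. In fibroblast-like cells the direction depended on the setting. All 3 were higher in takinib than in vehicle cells of female origin, and all 3 were lower with each library clustered on its own. Within the Igfbp3-led cluster Lox was at -0.07, Loxl2 at -0.76 and Plod2 at -0.75.

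Over 24 class sums (12 classes of at least 50 cells in each library) the members' levels, as log2 of CPM plus 1, were described by Pearson's r; class sums of 1 library share depth and free RNA, and no test was made. Plod2 was most like Loxl1 (0.94) and Loxl2 (0.94) among the members, and Plod1 was most like Plod3 (0.74). Among 12390 other genes, those most like Lox were Fbln1 (0.91), Olfr1033 (0.90) and Colec12 (0.90). Those most like Loxl1 were Dkk3 (0.96), Podxl2 (0.95) and Col1a2 (0.95). Loxl2 was most like Sulf1 (0.97), Ccn4 (0.96) and Map1a (0.96), and Plod2 was most like Fkbp14 (0.96), Sulf1 (0.94) and Ccn4 (0.94). Loxl3 was most like Cpt1c (0.93), Sod3 (0.93) and Efemp2 (0.92), and Loxl4, with few UMIs, like Sbspon (0.95), Nav3 (0.93) and Ltbp1 (0.89). Genes with a pattern like that of Plod1 included Hip1 (0.91) and Fez2 (0.90), and Plod3 was most like Dhrs3 (0.92), Adam15 (0.86) and Acly (0.84). Plod2 and Loxl2 thus shared 2 of their 3 nearest genes.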

How the data were processed

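Single cells of 2 tumour libraries were analysed, 1 per group. The deposited matrices hold UMI counts per gene and barcode; per the file headers they were written by Cell Ranger 4 (vehicle) and 6.1.1 (takinib), and the submitters' processing notes name mm10, Cell Ranger 2.1.1, STAR 2.0.4b, bcl2fastq, Subread and featureCounts 1.45 without roles. The genes and barcodes files give names only. Vehicle was deposited with 704261 barcodes and takinib with 34158, the latter with at least 500 UMIs each, so that empty droplets were seen for vehicle alone; there, pooled barcodes of under 100 UMIs held Lox at 30.7 CPM and Plod3 at 76.8 CPM. Total UMIs in kept cells were 42000538 and 119726977.

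Doublets were scored with Scrublet in scanpy 1.11.5 (314 removed from vehicle). For takinib the automatic threshold marked 0.00373%, so the top 6% of scores (1607 cells) were removed. Cells of both libraries were clustered by the Leiden method at resolution 1 (mixed clusters split once at 0.5). Clusters took a class name from marker genes where at least 3 were detected, and 31 vehicle and 9 takinib cells stayed unnamed. Raw counts were summed per class and library and scaled to the class total (CPM). Ratios carry no pseudocount; intervals are exact Poisson for levels, exact conditional binomial for ratios and Clopper-Pearson for shares, and PCR or cell-to-cell variation is outside them. A ratio needed 20 summed UMIs, a call 2-fold. A count of 0 was set to a floor of 3 counts for calls. The ratio code was tested on simulated data. No test was possible with 1 library per group.

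All members are named in every class with at least 50 cells in both libraries; of each list, up to 3 genes with the highest and 3 with the lowest ratio are named, and for each member its 3 most alike genes, of which 1 is not reported here. The members, lists and alternatives were chosen with earlier results of these data known. Clusters and cells singled out by Lox were chosen after their values were seen. Names came with the files; coordinates and coding sequence are from GENCODE M21 (GRCm38) and promoters from RefSeq, which held 3 of the 8 members. Ages, doses and times are as the labels give them.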

Additional observations from a re-analysis of the deposited data

How the results depend on the processing

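Alternatives covered the cell filter, mitochondrial limit, doublets, clustering, thinning, scaling, a pseudocount, origin, the count minimum and naming; 5 more (leaving out the Serpinb2-led or the U90926-led takinib cluster, equal weight per cell, the Cdkn2a-led cluster alone, male vehicle cells) were chosen after seeing the data. They were run for fibroblast-, epithelial-, macrophage- and endothelial-like cells and all kept cells, and no member past 2-fold there changed sign; neutrophil-, T- and B-like cells were not rerun. The number of fibroblast-like members past 2-fold went from 3 to 1 with vehicle cells of female origin (Loxl1 remained). The epithelial-like number went from 4 to 2 with cells thinned to 1000 UMIs, to 1 with 10 CPM added (Loxl2 remained) and to 2 with equal weight per cell. The macrophage-like number went from 2 to 1 (Lox remained) with thinning, with 10 CPM added, with female vehicle cells and with a minimum of 50 UMIs. The number over all kept cells went from 6 to 2 with 10 CPM added. The cause was not tested.

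Lox in macrophage-like cells was past 2-fold higher in all 15 alternatives, from 1.46 to 4.30. Loxl1 in fibroblast-like cells was past 2-fold lower in 15 of 15, from -2.25 to -1.46, and Loxl3 in 14 of 15, from -1.96 to -0.87. Plod2 in epithelial-like cells was past 2-fold lower in 11 of 15 and Plod3 in 9 of 15. Lox in epithelial-like cells ran from -2.33 (female vehicle cells) to 0.54 (male vehicle cells), and in fibroblast-like cells Loxl2 ran from -0.47 to 0.79 and Plod2 from -0.52 to 0.88. Loxl4 (79 UMIs in all) and the takinib endothelial-like and perivascular-like cells (105 and 14) limit what can be read. No paired analysis was possible because each group has 1 library.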

Other observations

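The takinib macrophage-like cells with 2 or more Lox UMIs in the U90926-led cluster differed from the cells of that cluster without Lox in a few other transcripts, chosen after their values were seen as the genes with the highest ratio among 3081 with at least 50 UMIs in each set. The chemokine Cxcl13 was at 293 CPM (434 UMIs, 169 cells) beside 21.9 CPM (238 UMIs, 1727 cells), a ratio of 13.4 (11.4 to 15.7). It is among the leading genes of a fibroblast-like cluster and of the macrophage-like cluster led by Ccl8. U90926 was at 2479 and 291 CPM, a ratio of 8.52 (8.13 to 8.94), and the proteoglycan Dcn had a ratio of 8.18 (7.06 to 9.47). The follistatin-like Fstl1 was at 45.9 and 6.90 CPM (68 and 75 UMIs), a ratio of 6.66 (4.72 to 9.37). The haemoglobin transcript Hbb-bs, at 517 and 57.8 CPM, was among them with a ratio of 8.93 (8.02 to 9.94); erythroid-like cells numbered 542 in this library, and the part of their RNA was not tested. Saa3 was at 126847 and 64032 CPM. All of these cells are from 1 library, so the intervals cover counting error only.

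In vehicle fibroblast-like cells, those of male origin held more of several members than those of female origin. Plod2 was at 309 CPM in 191 male cells and 138 CPM in 121 female cells, a female over male log2 ratio of -1.16 (-1.60 to -0.74). Plod3 was at 193 and 104 CPM (-0.90, interval -1.42 to -0.41) and Loxl2 at 277 and 178 CPM (-0.64, interval -1.04 to -0.26). Loxl1 was at 839 and 788 CPM (-0.09, interval -0.28 to 0.10). Sex and mouse cannot be told apart here.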
